A study of Homo sapiens with 60 samples.

Results

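The comparison described here sets HT29 cells given the high dose of a Scutellariae Radix extract against cells given vehicle. It holds 6 RNA-seq libraries of the 60 in the series, 3 per group, chosen by their labels alone. HT29 is an established epithelial line from a human colorectal adenocarcinoma. The high-dose group received an ethanol extract of the root at 500 µg/mL for 24 h. Vehicle was 0.1% DMSO for 24 h according to the sample labels, while the series text gives 2%. The 3 libraries at 100 µg/mL (medium dose), the 3 at 20 µg/mL (low dose) and 14 libraries of the other 5 extracts at 500 µg/mL (Sayeok-tang, Bojungikgi-tang, Zingiberis Rhizoma Recens, Zingiberis Rhizoma and Pinelliae Tuber) serve as comparisons. Sayeok-tang and Bojungikgi-tang were water extracts, while the Zingiberis and Pinelliae extracts were ethanol extracts, all given for 24 h. Whether the 3 libraries of a group came from independent cultures is not stated in the labels. A p-value here therefore reflects the variation among libraries, part of which may be technical.

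Scutellariae Radix is the dried root of Scutellaria baicalensis, a plant known for flavones such as baicalin, baicalein and wogonin. The aryl hydrocarbon receptor (AhR) is a ligand-activated transcription factor that turns on xenobiotic-metabolising enzymes, NRF2 turns on antioxidant enzymes, ATF4 turns on amino acid supply genes during the integrated stress response, and SREBP2 turns on cholesterol synthesis when sterols are low. Interferon-stimulated genes form the antiviral programme that the ISGF3 complex drives, and many of them are expressed at a basal level without added interferon.

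Total counts, in units of 1e6, ran from 20.01 to 35.82 over the 6 libraries, and 21513 to 23673 genes had a count. The 12 epithelial identity markers, EPCAM, KRT8 and VIL1 among them, were detected in each of the 6 libraries. Of 12 leukocyte markers, CD3D, CD3E and MS4A1 were at 0 in all 6 libraries and 8 stayed under 1 CPM (counts per 1e6 counts of the library). The other 4 were LYZ, which encodes lysozyme, at 1621 to 1919 CPM, and CD68, CD14 and ITGAM, of which CD14 fell by 1.08 and ITGAM rose by 0.83 on the log2 scale at high dose. Their part in the results was not tested. Of 12 fibroblast and endothelial markers, COL1A2, CDH5 and KDR were at 0 and 8 stayed under 1 CPM. Vehicle library 1 stood apart in its share of ribosomal protein counts, 7.2% against 6.10% and 5.80% in the other vehicle libraries and 5.33% to 5.71% at high dose. Low-dose library 3 (9.35% ribosomal protein counts) and Pinelliae Tuber high-dose library 2 (14.3% mitochondrial counts) also stood apart. The sample titles give vehicle and extract libraries the same batch name, BatchC. In the labels vehicle has a sample code set of its own, so extract and code set cannot be told apart in the contrast with vehicle. The contrast with the low dose lies within 1 code set.

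High dose changed the expression of 3953 of 16763 genes tested, at an adjusted p under 0.05 by edgeR's quasi-likelihood test with Benjamini-Hochberg adjustment. Of all genes tested, 1919 rose (11.4%) and 2034 fell (12.1%). Counts of list members given below are to be read against these shares. Most shifts were small: 2571 of the changed genes (65.0%) moved by less than 0.5 on the log2 scale, and the median over all genes was -0.02. Large changes leaned downward, with 114 genes rising and 361 falling more than 2-fold. Without vehicle library 1, 2515 genes were called, of which 1229 rose and 1286 fell. Without all 3 libraries that stood apart, that library among them, 5171 were called. At the medium dose 9.53% of genes tested differed from the same vehicle libraries, and at the low dose 0.382%.

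**Figure D1:**
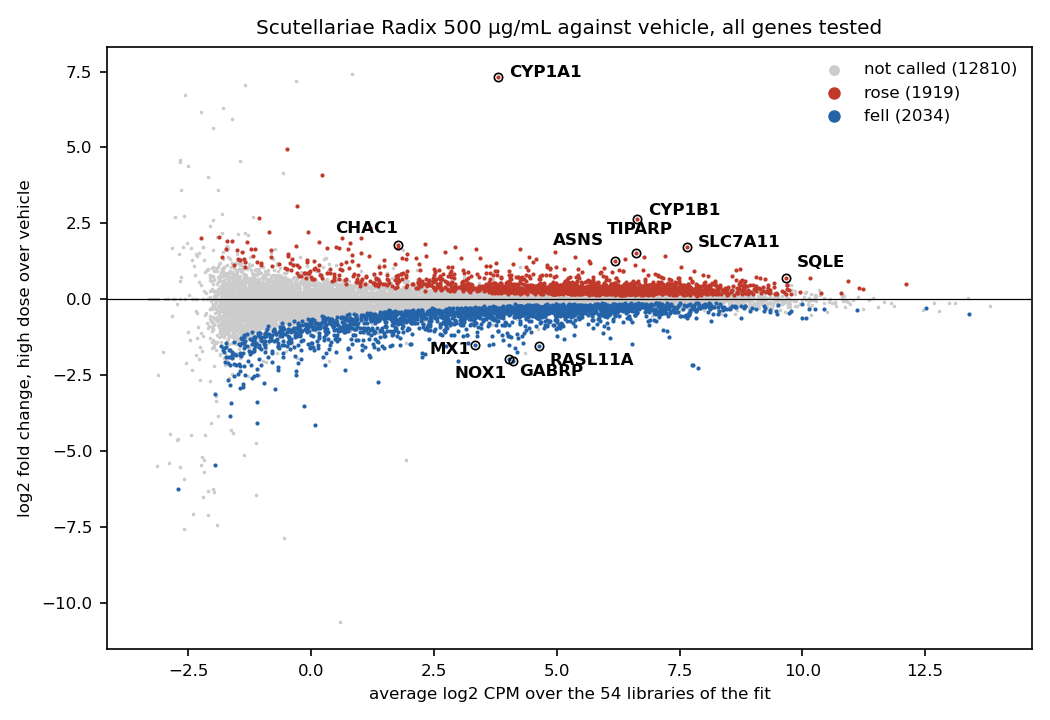
Each point is 1 of the 16763 genes tested, placed by its average log2 CPM (horizontal axis) and its log2 fold change at high dose over vehicle (vertical axis); red genes rose, blue genes fell and grey genes were not called. CYP1A1, at 7.31, stands above the other well expressed genes, while NOX1 and GABRP lie near -2.

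AhR targets held the largest rise. Of 15 listed genes 11 passed the low-count filter, and 10 of these 11 rose, with a median log2 fold change of 0.89. CYP1A1, the classic AhR-induced monooxygenase (chromosome 15, 74719542 to 74725610, GENCODE 29 on GRCh38), was close to undetected in vehicle, at 0.343, 0.168 and 0.494 CPM from 6 to 13 counts. The high-dose libraries held 52.3, 51.2 and 49.7 CPM, a log2 fold change of 7.31 ± 0.19 (SE, edgeR adjusted p = 9.8e-30). The groups lay far apart. Genes ranked by size had to have groups without overlap, so separation itself is no finding for CYP1A1.

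CYP1B1, which encodes a related monooxygenase (chromosome 2, 38066973 to 38109902), rose from 46.2, 46.8 and 50.5 CPM to 293, 304 and 295 CPM (log2 fold change 2.64 ± 0.08 SE). TIPARP, an ADP-ribosyltransferase that feeds back on AhR, rose from 63.9, 68.6 and 74.8 CPM to 194, 202 and 204 CPM (1.53 ± 0.08 SE). ALDH3A1, an aldehyde dehydrogenase, rose by 1.55 and ALDH1A3, which makes retinoic acid, by 1.13 on the log2 scale. The receptor itself did not pass the test: AHR read 92.9, 108 and 115 CPM in vehicle and 112, 126 and 118 CPM at high dose (log2 fold change 0.17, adjusted p = 0.25). AHRR, the AhR repressor and a common AhR target, had a log2 fold change of -0.00 (adjusted p = 0.99), with 4.85, 5.81 and 4.59 CPM in vehicle and 5.27, 5.27 and 4.8 CPM at high dose, so the groups overlapped.

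The CYP1A1 and TIPARP start regions are shown because these targets carry the AhR core motif GCGTG (capitals, searched on both strands, so CACGC is the same motif on the other strand). Sequences and starts are RefSeq's on GRCh38.p14, written along the gene's strand, from chr15:74725561-74725605 (minus strand) and chr3:156674362-156674472 (plus strand).
CYP1A1: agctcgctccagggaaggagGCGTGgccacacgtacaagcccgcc
TIPARP: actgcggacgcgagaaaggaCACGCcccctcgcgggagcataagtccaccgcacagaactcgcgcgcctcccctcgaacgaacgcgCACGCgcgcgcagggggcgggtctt
In windows from 250 bases before to 50 after the start, 8 of the 9 AhR targets with a RefSeq window held GCGTG (88.9%), against 36.5% of all 35116 windows. AHRR, whose level did not pass the test, was among the 8. A match describes the letters and does not show a bound site.

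The response of several AhR targets was larger at the medium than at the high dose. In the contrast of high with medium dose, examined after the values were seen, 3.53% of genes tested were called. CYP1A1 read 183, 187 and 180 CPM at 100 µg/mL, and the high dose lay 1.85 below that on the log2 scale (edgeR log2 difference -1.85, adjusted p = 2.7e-16). CYP1B1 read 498, 499 and 501 CPM at the medium dose (log2 difference -0.75, adjusted p = 3.6e-10). ALDH1A3 reached 116, 124 and 120 CPM at the medium dose but 43.0, 44.8 and 43.0 CPM at the high dose (log2 difference -1.46, adjusted p = 2.6e-20). For TIPARP the medium dose was also nominally higher, at 213 to 215 CPM, without passing the test (-0.10, adjusted p = 0.76). Of the 10 AhR targets that rose, 5 had a higher mean at the medium dose, namely CYP1A1, CYP1B1, ALDH1A3, TIPARP and NFE2L2. Among the rising NRF2, ATF4 and cholesterol genes no mean was higher at the medium dose. All these genes were counted because they rose at the high dose, which favours a higher mean there. The same share over all rising genes was not computed, so these counts only describe the lists.

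**Figure D2:**
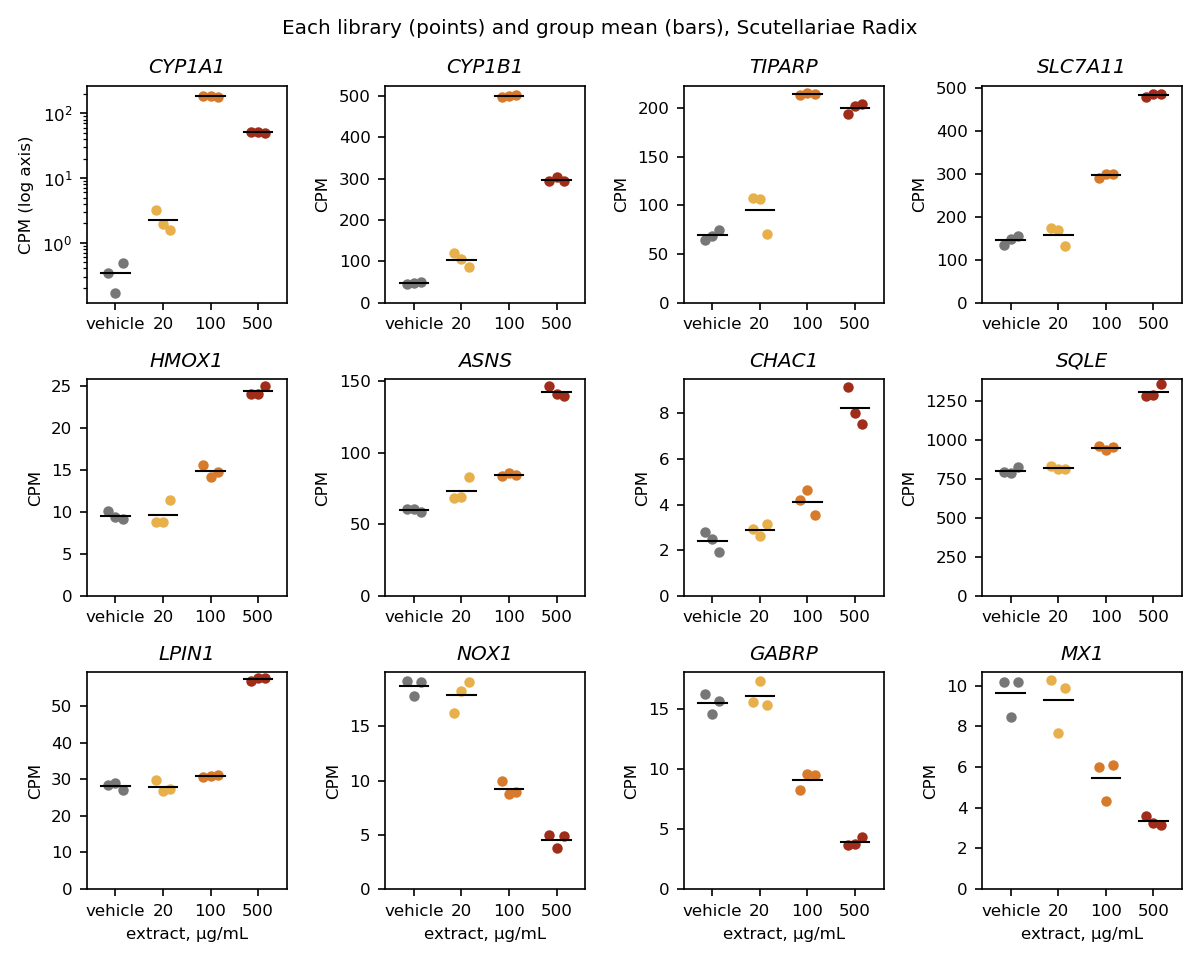
CPM (vertical axis, logarithmic for CYP1A1 alone) against extract concentration for 12 genes, with 1 point per library and a bar at the mean of 3. CYP1A1 and CYP1B1 peak at 100 µg/mL, SLC7A11, HMOX1 and ASNS are highest at 500 µg/mL, and NOX1, GABRP and MX1 are lowest there.

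NRF2 targets rose broadly. All 28 listed genes were tested, 24 rose and 0 fell, with a median log2 fold change of 0.62. SLC7A11, the cystine importer that limits glutathione synthesis and also an ATF4 target, rose from 135, 148 and 155 CPM to 477, 486 and 486 CPM (1.73 ± 0.12 SE, edgeR adjusted p = 6.7e-15). GCLC, the catalytic subunit of the first enzyme of glutathione synthesis, rose from 72.5, 77.2 and 82.6 CPM to 162, 167 and 176 CPM (1.12 ± 0.07 SE). HMOX1, which degrades haem, rose from 10.1, 9.40 and 9.19 CPM to 24.0, 24.1 and 25.0 CPM (1.35 ± 0.10 SE). In each case the high-dose libraries lay above the vehicle libraries with no overlap, which was a condition for ranked rises such as SLC7A11. For the others, choice by low p or from the panel favours it.

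The reductase AKR1B10 rose by 1.43 and AKR1C1 by 1.39 on the log2 scale, and the AKR1C genes are near-identical copies whose reads may be split uncertainly. NQO1, a quinone reductase, rose less, from 566, 514 and 528 CPM to 850, 815 and 866 CPM (0.65 ± 0.08 SE). TXN, PRDX1, TALDO1 and GPX2 were the 4 listed genes that did not pass the test, with log2 fold changes of 0.02 to 0.10. The antioxidant response element TGACNNNGC was present in the start windows of 5 of 20 NRF2 targets (25.0%) and in 13.3% of all windows.

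Conjugation and export genes moved in part. Among 13 glucuronidation genes tested 5 rose and 2 fell, or 5 and 1 without vehicle library 1. UGDH, which makes the UDP-glucuronate donor, rose from 82.5, 84.5 and 87.9 CPM to 127, 132 and 129 CPM (0.61 ± 0.08 SE). UGT1A6 rose by 0.89, UGT1A1 by 0.58 and UGT1A10 by 0.51 on the log2 scale, but the UGT1A genes share their last exons, so reads cannot be assigned to each with certainty. ABCC2, an efflux pump for conjugates, rose from 0.637, 0.926 and 1.29 CPM to 2.23, 3.72 and 3.35 CPM (1.69 ± 0.22 SE, edgeR adjusted p = 6.9e-08). Of 11 efflux pumps 4 rose and 0 fell, or 3 and 1 without vehicle library 1. CYP3A5, a drug-metabolising monooxygenase, rose by 0.40, and NR0B2, a nuclear receptor without DNA-binding domain, fell by 0.92 on the log2 scale.

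ATF4 targets rose as a group: 25 of 28 listed genes were tested, 19 rose and 0 fell, with a median of 0.65. ASNS, asparagine synthetase, rose from 61.0, 60.9 and 58.8 CPM to 147, 141 and 140 CPM (1.24 ± 0.06 SE, edgeR adjusted p = 2.4e-20). TRIB3, a pseudokinase that restrains ATF4, rose from 43.7, 45.0 and 42.7 CPM to 110, 101 and 104 CPM (1.26 ± 0.07 SE). CHAC1, which degrades glutathione, rose from 2.79, 2.50 and 1.94 CPM to 9.13, 8.00 and 7.54 CPM (1.77 ± 0.16 SE). ATF3, a stress-induced transcription factor, rose from 2.50, 2.33 and 2.7 CPM to 8.01, 7.26 and 8.99 CPM (1.69 ± 0.14 SE). For these 4 genes no vehicle library reached the lowest high-dose library. Their choice, by low p or with earlier results known, favours such separation, and its share over all genes tested was not computed. DDIT3 (CHOP), a factor linked to cell death under prolonged stress, rose by 0.65.

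Start regions with the ATF4 composite element TGATGNAA are shown, for 3 members that rose more than 2-fold (capitals, with TTGCATCA the same element on the other strand). They are RefSeq sequence on GRCh38.p14 from chr7:97872449-97872496 (minus strand), chr15:40953242-40953289 (plus strand) and chr1:212565196-212565243 (plus strand).
ASNS: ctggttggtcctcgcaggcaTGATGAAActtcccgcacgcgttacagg
CHAC1: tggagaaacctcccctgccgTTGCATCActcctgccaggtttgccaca
ATF3: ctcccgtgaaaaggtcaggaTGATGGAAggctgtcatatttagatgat
The element was present in 5 of 23 ATF4 targets with a window (21.7%) and in 3.62% of all windows.

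Amino acid supply beyond those genes followed in part. Among 20 amino acid transporters tested 11 rose and 3 fell. SLC38A2, a neutral amino acid importer, rose from 159, 166 and 180 CPM to 317, 322 and 323 CPM (0.93 ± 0.11 SE), and SLC1A4 rose by 0.87. PSAT1, in serine synthesis, rose from 97.3, 105 and 108 CPM to 172, 181 and 183 CPM (0.79 ± 0.09 SE). The folate enzymes ALDH1L1 and SHMT1 fell by 0.74 and 0.30, and the serine and one-carbon list as a whole split into 5 rising and 3 falling of 15. Aminoacyl-tRNA synthetases, which charge tRNAs, showed 13 of 20 higher and 1 lower, with a median of 0.24. WARS1 rose by 0.51 and IARS1 by 0.44, while QARS1 fell by 0.31.

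Folding genes moved less. Of 19 endoplasmic reticulum chaperones 10 rose and 0 fell, with a median of 0.18. HSPA5 (BiP), the main chaperone of that compartment, rose from 406, 405 and 422 CPM to 561, 544 and 547 CPM (0.42 ± 0.06 SE, edgeR adjusted p = 1.2e-06). DNAJB9 rose by 0.91 and DNAJC3 by 0.68 on the log2 scale. Among 17 heat shock genes 8 rose and 1 fell, or 6 and 0 without vehicle library 1. HSPH1, a nucleotide exchange factor, rose from 372, 389 and 406 CPM to 581, 586 and 583 CPM (0.58 ± 0.05 SE). HSPA1A rose by 0.39 but has a near-identical copy, HSPA1B.

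**Figure D3:**
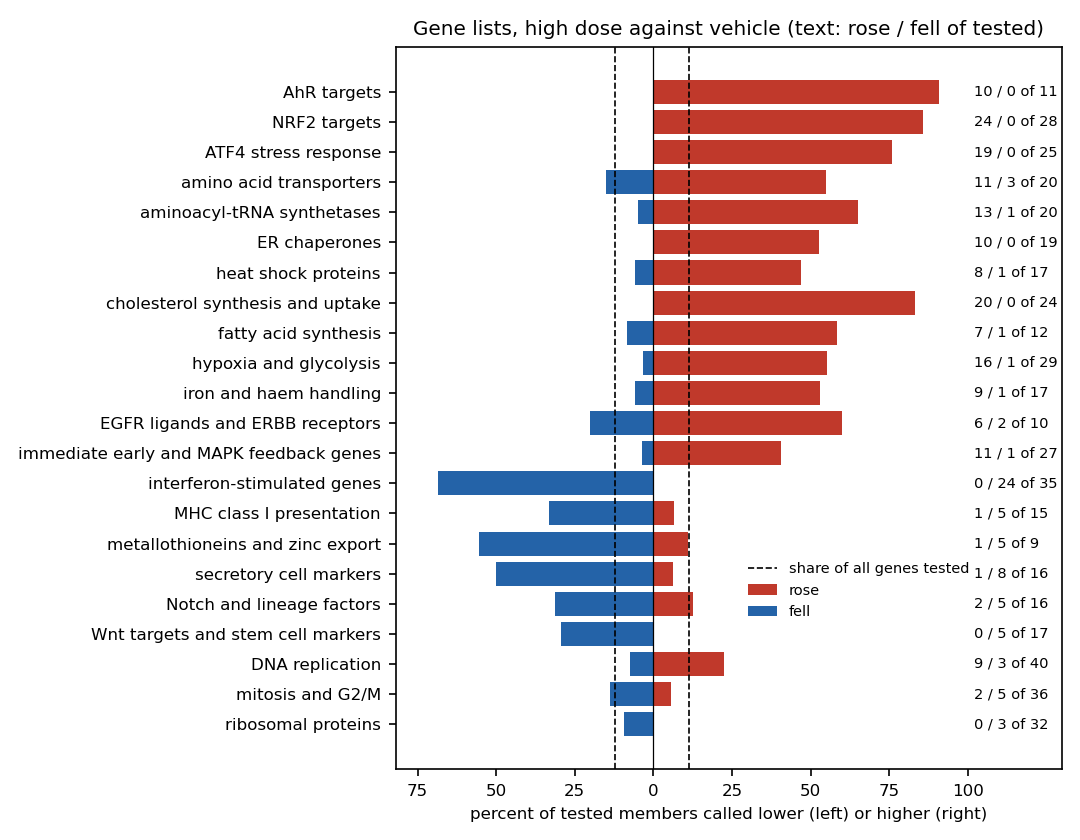
Bars give the percent of tested members of 22 gene lists that rose (red, right) or fell (blue, left) at high dose against vehicle, with the numbers at the right edge. Dashed lines mark the 11.4% and 12.1% of all genes tested that rose and fell; AhR, NRF2, ATF4 and cholesterol genes reach farthest right, and interferon-stimulated genes farthest left.

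Cholesterol genes rose almost throughout. All 24 listed genes were tested, 20 rose and 0 fell, with a median log2 fold change of 0.46. SQLE, a rate-controlling step of sterol synthesis, rose from 790, 789 and 825 CPM to 1279, 1285 and 1358 CPM (0.71 ± 0.04 SE, edgeR adjusted p = 7.1e-17). INSIG1, a sterol-regulated brake on SREBP processing, rose from 183, 179 and 178 CPM to 297, 283 and 301 CPM (0.71 ± 0.05 SE). HMGCS1 rose by 0.77, SC5D by 0.76 and LSS by 0.46 on the log2 scale. The high-dose libraries exceeded the vehicle libraries for each of these 5 genes, which their choice by low p or from the panel favours. At the medium dose the list's median was 0.01 and at the low dose 0.04. The list's summed CPM was 4709 to 4842 in vehicle and 4661 to 4813 at the low dose. It was 5064 to 5131 at the medium dose and 6647 to 6783 at the high dose, so the larger rise was seen at 500 µg/mL.

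The start windows of 1 of 18 cholesterol genes held TCACNCCAC, a sterol regulatory element core (SREBF2 alone, 5.56%, against 1.13% of all windows). Targets of LXR, the receptor that senses sterol excess, went the other way in 4 of 10 tested members and rose in 1. ABCA1 and ABCG1, which export cholesterol, fell by 0.72 and 0.59, and MYLIP, a ubiquitin ligase, fell by 0.31. SCD, a desaturase that SREBP1 also induces, rose by 0.60, while SREBF1, which encodes SREBP1, fell by 0.44 (edgeR adjusted p = 0.00062).

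Of 16 triglyceride storage genes 4 rose and 3 fell, with a median of -0.10, and MGLL, a monoacylglycerol lipase, fell by 0.50. ACSS2, which makes acetyl-CoA from acetate, rose from 22.2, 22.0 and 23.0 CPM to 59.4, 57.6 and 53 CPM (1.34 ± 0.06 SE, edgeR adjusted p = 2.4e-20). LPIN1, a phosphatidate phosphatase, rose from 28.4, 28.9 and 27.0 CPM to 56.8, 57.5 and 57.6 CPM (1.03 ± 0.07 SE). GPAT3, a glycerol-3-phosphate acyltransferase, rose from 11.7, 12.9 and 14.4 CPM to 41.0, 40.9 and 41.5 CPM (1.66 ± 0.08 SE). LPIN1 stood at 30.7, 30.9 and 31.1 CPM at the medium dose, near vehicle, whereas GPAT3 had already reached 27.0, 28.4 and 27.8 CPM. Of 12 fatty acid synthesis genes 7 rose and 1 fell, and of 17 PPAR and fatty acid oxidation genes 3 rose and 4 fell. The shares over all genes tested were 11.4% and 12.1%.

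Glucose supply genes rose within the hypoxia and glycolysis list, where 16 of 29 tested members rose and 1 fell (median 0.28). SLC2A1, the main glucose importer, rose from 550, 547 and 535 CPM to 858, 878 and 902 CPM (0.69 ± 0.04 SE, edgeR adjusted p = 3.8e-17). VEGFA, the angiogenic factor, rose from 64.8, 70.6 and 70.3 CPM to 113, 111 and 107 CPM (0.69 ± 0.07 SE). ENO2 rose by 0.78 and ALDOC by 0.72. EGLN3, a standard HIF target, did not pass the test (log2 fold change -0.17, adjusted p = 0.21) and was 1 of 12 members that were not called. The ACGTG core was found in 12 of 26 windows of this list (46.2%) and in 21.4% of all windows.

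In iron and haem handling 9 of 17 genes rose and 1 fell. Beside HMOX1, the haem synthesis enzymes ALAS1 and FECH rose by 0.60 and 0.49. SLC40A1 (ferroportin), the iron exporter, fell from 121, 126 and 136 CPM to 85.0, 83.6 and 83.8 CPM (-0.60 ± 0.08 SE).

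Among 10 EGFR ligand and ERBB receptor genes tested 6 rose and 2 fell, or 6 and 1 without vehicle library 1. The falls were the receptor genes ERBB2 (-0.31) and ERBB3 (-0.13). EREG (epiregulin) rose from 75.6, 80.1 and 87.0 CPM to 209, 213 and 217 CPM (1.40 ± 0.11 SE, edgeR adjusted p = 6.1e-13), AREG by 0.80 and TGFA by 0.44. ERRFI1, a feedback inhibitor of EGFR, rose by 0.93. Of 27 immediate early and MAPK feedback genes 11 rose and 1 fell, led by ATF3 and by DUSP5, an ERK phosphatase, which rose from 5.49, 4.24 and 3.99 CPM to 11.4, 12.2 and 12.7 CPM (1.42 ± 0.11 SE). PHLDA1 rose by 0.72 and JUN by 0.50.

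Cell cycle and p53 genes showed no common direction. CDKN1A (p21), a cell cycle inhibitor, rose from 16.7, 15.6 and 15.4 CPM to 30.6, 28.3 and 30.9 CPM (0.91 ± 0.08 SE), while BTG2, an antiproliferative p53 target, fell from 43.3, 39.7 and 39.0 CPM to 17.3, 13.9 and 17.9 CPM (-1.31 ± 0.09 SE). Of 22 p53 targets 7 rose and 4 fell, or 6 and 2 without vehicle library 1. Over all genes tested 11.4% rose and 12.1% fell. Among 40 replication genes 9 rose and 3 fell (6 and 1 without vehicle library 1), with CDC6 at 0.45 and RRM2 at 0.41. Among 36 mitosis genes 2 rose and 5 fell (1 and 4 without that library), near the share over all genes tested. The pro-survival MCL1 rose by 0.37 and the pro-apoptotic BMF and PMAIP1 each by 0.70.

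**Figure D4:**
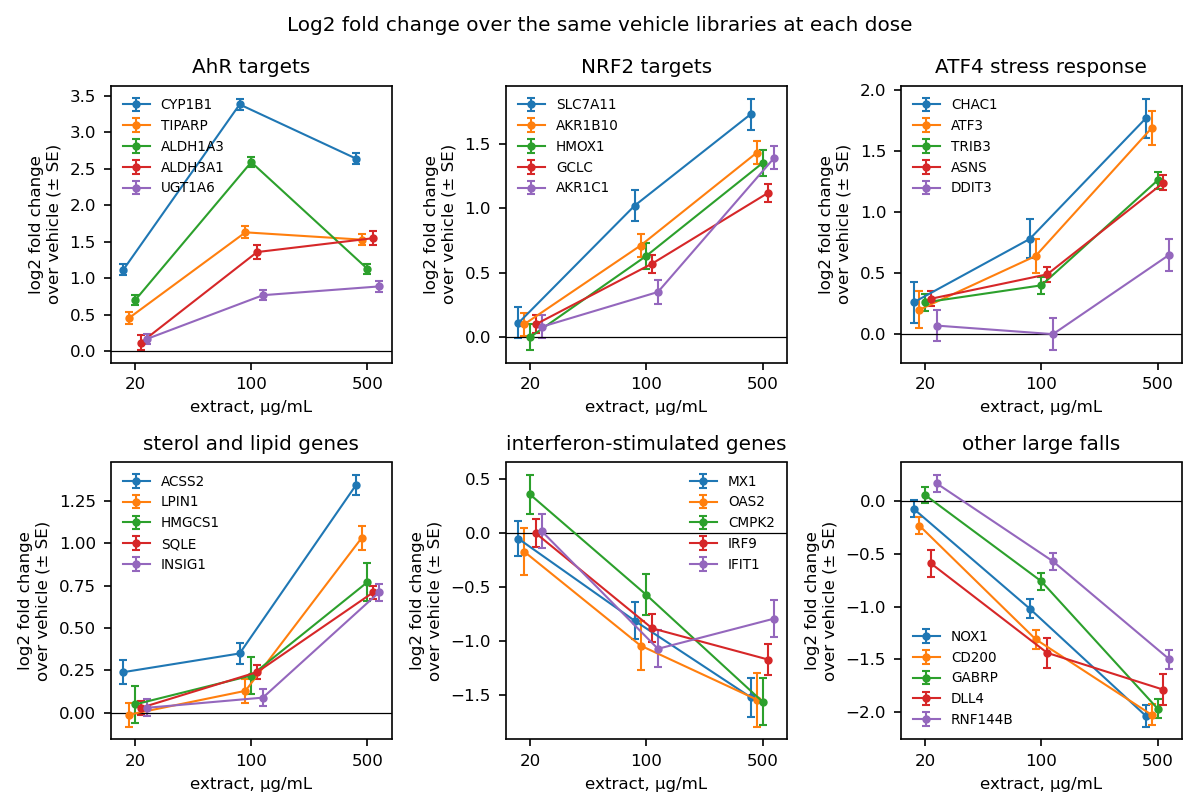
Log2 fold change over vehicle with its SE (vertical axes) at 20, 100 and 500 µg/mL for 30 genes in 6 groups, all set against the same 3 vehicle libraries. CYP1B1 and ALDH1A3 turn down from 100 to 500 µg/mL, while most of the NRF2, ATF4 and lipid genes rise up to 500 µg/mL and the falling genes decline up to it, except IFIT1.

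Genes with a symbol and an average log2 CPM above 2 were ranked by their fall, on the condition that the groups did not overlap, so separation of the groups is no finding for these or for the ranked rises. NOX1, the colonic superoxide-producing NADPH oxidase (chromosome X, 100843324 to 100874345), fell from 19.2, 17.8 and 19.1 CPM to 5.02, 3.76 and 4.91 CPM (-2.04 ± 0.10 SE, edgeR adjusted p = 2.4e-20). CD200, an immune-inhibitory surface ligand, fell from 8.92, 9.68 and 10.6 CPM to 2.54, 2.25 and 2.36 CPM (-2.03 ± 0.10 SE). GABRP, a GABA-A receptor subunit, fell from 16.3, 14.6 and 15.7 CPM to 3.65, 3.76 and 4.38 CPM (-1.97 ± 0.09 SE). The vehicle libraries of each of these 3 genes were more than 2-fold above the highest high-dose library.

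NOXO1, the organiser subunit that NOX1 needs, fell by 0.74 as well, so that 2 of 7 NADPH oxidase genes tested fell. SPEG, DLL4, ADH6 and ATP6V1B1 fell by 1.91, 1.79, 1.76 and 1.75, and RNF144B, a ubiquitin ligase, by 1.5. CHST3, a chondroitin sulfotransferase, RASL11A and FAM131B fell by 1.61, 1.54 and 1.49. Of the ranked rises not described above, SLC22A3, an organic cation transporter, rose by 1.64 and ADGRF1, an adhesion G protein-coupled receptor, by 1.39. ADH6 and ADH1C are alcohol dehydrogenases, and ADH1C fell from 2.65, 2.81 and 2.28 CPM to 0.101, 0.432 and 0.571 CPM (-2.72 ± 0.26 SE). Among the 15 largest rises 7 increased in steps from vehicle through the low and medium to the high dose by their means, and 5 peaked at the medium dose. Among the 15 largest falls 11 decreased in such steps and 0 were lower at the medium than at the high dose. Both sets were picked by their high-dose values, which favours an extreme mean at that dose. The same shares over all genes tested were not computed, so these counts only describe the ranked genes.

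Interferon-stimulated genes fell together. Of 35 tested, 0 rose and 24 fell, with a median log2 fold change of -0.66. MX1, an antiviral GTPase, fell from 10.2, 8.47 and 10.2 CPM to 3.6, 3.24 and 3.16 CPM (-1.52 ± 0.18 SE, edgeR adjusted p = 1.7e-08). IRF9, the DNA-binding subunit of ISGF3, fell from 16.6, 14.1 and 15.1 CPM to 7.56, 7.35 and 5.52 CPM (-1.17 ± 0.14 SE). OAS2 and CMPK2 fell by 1.54 and 1.56, and IFIT3 by 0.73. For these 5 genes the groups did not overlap, which the ranking required of MX1 and OAS2 and which choice by low p favours for the others. Levels were low, and OAS2 and CMPK2 stayed under 10 CPM in each of the 6 libraries. STAT2, another ISGF3 subunit, did not pass the test (log2 fold change -0.12, adjusted p = 0.3). Without vehicle library 1, 23 of the 35 fell and 0 rose.

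Of 15 MHC class I presentation genes 5 fell and 1 rose, or 4 and 0 without vehicle library 1. PSMB8 and PSMB10, immunoproteasome subunits, fell by 0.73 and 0.72. PSMB9 (-1.08) and TAP1 (-0.33) were also lower, but their calls were lost under some other settings. NF-kB and chemokine genes were divided: 7 of 23 rose and 3 fell. CXCL8, the neutrophil chemokine, rose from 5.00, 4.46 and 4.75 CPM to 8.77, 9.90 and 11.3 CPM (1.09 ± 0.12 SE), whereas LCN2, an antimicrobial protein gene, fell by 0.74. CXCL1 had a log2 fold change of -0.25 (adjusted p = 0.55), with overlapping groups.

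Secretory and lineage genes leaned downward. Among 16 secretory markers 8 fell and 1 rose: REG4 fell from 30.6, 25.9 and 27.1 CPM to 14.2, 13.2 and 13.4 CPM (-1.03 ± 0.09 SE), the mucus protein gene FCGBP by 1.00, TFF3 by 0.95 and AGR2 by 0.60. ATOH1, the transcription factor that sets secretory fate, fell from 4.85, 4.77 and 4.21 CPM to 1.37, 1.86 and 1.68 CPM (-1.48 ± 0.20 SE, edgeR adjusted p = 1.9e-07). In the Notch pathway the ligand DLL4 fell from 6.62, 6.54 and 7.25 CPM to 1.98, 2.20 and 1.71 CPM (-1.79 ± 0.15 SE) while the ligand JAG1 rose by 0.66. Of 16 Notch and lineage genes 2 rose and 5 fell.

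Of 17 Wnt targets and stem cell markers 0 rose and 5 fell, among them EPHB3 (-1.07), the Wnt inhibitor DKK1 (-0.79) and PROM1 (-0.50). LGR5, the intestinal stem cell marker, did not pass the test against vehicle (-0.16, adjusted p = 0.14). Differentiation markers split: of 19 enterocyte markers tested 3 rose and 4 fell, or 4 and 3 without vehicle library 1. The shares over all genes tested were 11.4% and 12.1%. KRT20 rose from 272, 263 and 281 CPM to 373, 388 and 377 CPM (0.48 ± 0.05 SE), while VIL1, which bundles actin in microvilli, fell from 184, 188 and 191 CPM to 135, 141 and 139 CPM (-0.44 ± 0.04 SE). Of 16 tight junction genes 2 rose and 3 fell, or 1 and 3 without vehicle library 1, near the shares over all genes tested. The claudins CLDN1 and CLDN2 fell by 0.66 and 0.70, while CLDN12 rose by 0.31. The lowered secretory and epithelial genes are also cell identity markers, and in bulk RNA fewer cells of a type and less RNA per cell cannot be told apart.

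Ribosomal protein and mitochondrial calls depended on which libraries were fitted. Of 9 metallothionein and zinc export genes tested 5 fell and 1 rose: MT1X read 4.76, 3.56 and 2.92 CPM in vehicle and 1.77, 1.47 and 1.60 CPM at high dose (-1.20 ± 0.24 SE), and these genes are near-identical copies. The zinc exporter SLC30A1 rose by 0.46. Without vehicle library 1, 4 metallothionein genes fell and 1 rose. Ribosomal protein genes fell in 3 of 32 cases (RPLP0, RPLP1 and RPLP2), and mitochondrial transcripts rose in 1 and fell in 2 of 15, shares near the 12.1% of all genes tested that fell. The calls of both lists were lost without vehicle library 1, a run that called 2515 genes, and their part in other results was not tested. RPLP0 and MT-ND6 also lost theirs when any 1 high-dose library was left out. RPLP2 lost its call without high-dose library 2 or 3, and MT-CO3 without library 1. BCYRN1, a short cytoplasmic RNA with many genomic copies, read 24.3, 13.9 and 12.2 CPM in vehicle and 7.66, 8.69 and 5.68 CPM at high dose (-1.18), but -0.39 against the low dose (adjusted p = 0.21). KCNQ1OT1, an antisense nuclear RNA, was likewise lower than in vehicle (-0.46) and at 0.02 against the low dose (adjusted p = 0.88).

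Setting the high dose against the low dose asks which changes appear between 20 and 500 µg/mL without using vehicle. Here 10.7% of genes tested rose and 11.7% fell, 3765 in all. The count was 2217 without low-dose library 3, which stood apart, 2429 without high-dose library 2, and 310 when the 6 libraries were fitted alone. CYP1A1 was again the largest rise, from 3.15, 1.92 and 1.59 CPM at low dose (4.50 on the log2 scale, edgeR adjusted p = 7.4e-26). AHNAK2, a large scaffold protein gene, followed at 2.11, then SLC7A11 at 1.61, DUSP5 at 1.54 and CYP1B1 at 1.52. GABRP (-2.03), NOX1 (-1.97), CD200 (-1.80), SPEG (-1.79) and PLAAT4 (-1.71) were the largest falls. These 10 genes kept their call under each alternative run.

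The lists gave similar counts in this contrast, which shares its high-dose libraries with the contrast against vehicle. Of the tested members, 10 of 11 AhR, 24 of 28 NRF2, 20 of 25 ATF4 and 20 of 24 cholesterol genes were higher than at low dose, and 25 of 35 interferon-stimulated genes were lower. LGR5 was lower than at the low dose, 26.2, 27.4 and 26.8 CPM against 38.7, 39.7 and 31.4 CPM (-0.45, adjusted p = 2.4e-05). The 12 ribosomal protein genes and 4 metallothionein genes that fell against the low dose lost their calls without low-dose library 3.

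Setting Scutellariae Radix against the mean of the other 5 extracts at 500 µg/mL asks where it differs from herbal extracts at the same mass concentration. Of all genes tested 6.91% were higher and 7.41% lower, 2401 in all. Leaving out high-dose library 2 or 3 gave 1599 and 1545 genes, and leaving out the 3 libraries that stood apart gave 4074. CYP1A1 ranged from 0.643 to 3.18 CPM over the 14 libraries of the other extracts, against 49.7 to 52.3 CPM here (5.16 on the log2 scale, edgeR adjusted p = 1.2e-36). CYP1B1 ranged from 53.7 to 81.1 CPM in the others (2.07). ACSS2 came next, with 10.2 to 21.3 CPM in the others against 53 to 59.4 CPM (1.70), ahead of PADI2 (1.34), a protein-citrullinating enzyme, and DUSP5 (1.33).

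The largest falls against the other extracts were GABRP (-1.98), SPEG (-1.68), NOX1 (-1.66), RNF144B (-1.46) and MX1 (-1.43). GABRP read 11.9 to 24.4 CPM in the 14 libraries and 3.65 to 4.38 CPM here. All 15 largest rises and 15 largest falls against vehicle were called in the same direction against the other extracts. Of them, 12 and 13 lay beyond every one of the 14 libraries. These genes were ranked with the same high-dose libraries. The share of all genes tested that lay beyond the 14 libraries was not computed. AKR1B10, AKR1C1 and ALDH3A1 among the rises overlapped other extracts, AKR1C1 reaching 87.0 CPM there against 40.8 CPM here. OAS2 and SLC14A1 among the falls overlapped as well.

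By list, the 10 AhR, 20 of 28 NRF2, 21 of 25 ATF4 and 22 of 24 cholesterol genes were higher than in the other extracts, and 27 of 35 interferon-stimulated genes were lower. The 20 cholesterol genes that rose against vehicle each lay above all 14 libraries, whereas 10 of the 24 rising NRF2 genes did. Without the same share over all genes tested, these counts only describe the lists. ABCA1 and ABCG1 were lower than in the others by a log2 difference of -1.26 and -1.22. CXCL1, which did not pass the test against vehicle, was -2.11 against the other extracts (adjusted p = 7.7e-11), where it ranged from 1.29 to 28.8 CPM. These values share the high-dose libraries with both earlier contrasts, and equal mass of extract is not an equal dose of any compound. The other extracts also mix water and ethanol extraction, and the part of the solvent was not tested.

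**Figure D5:**
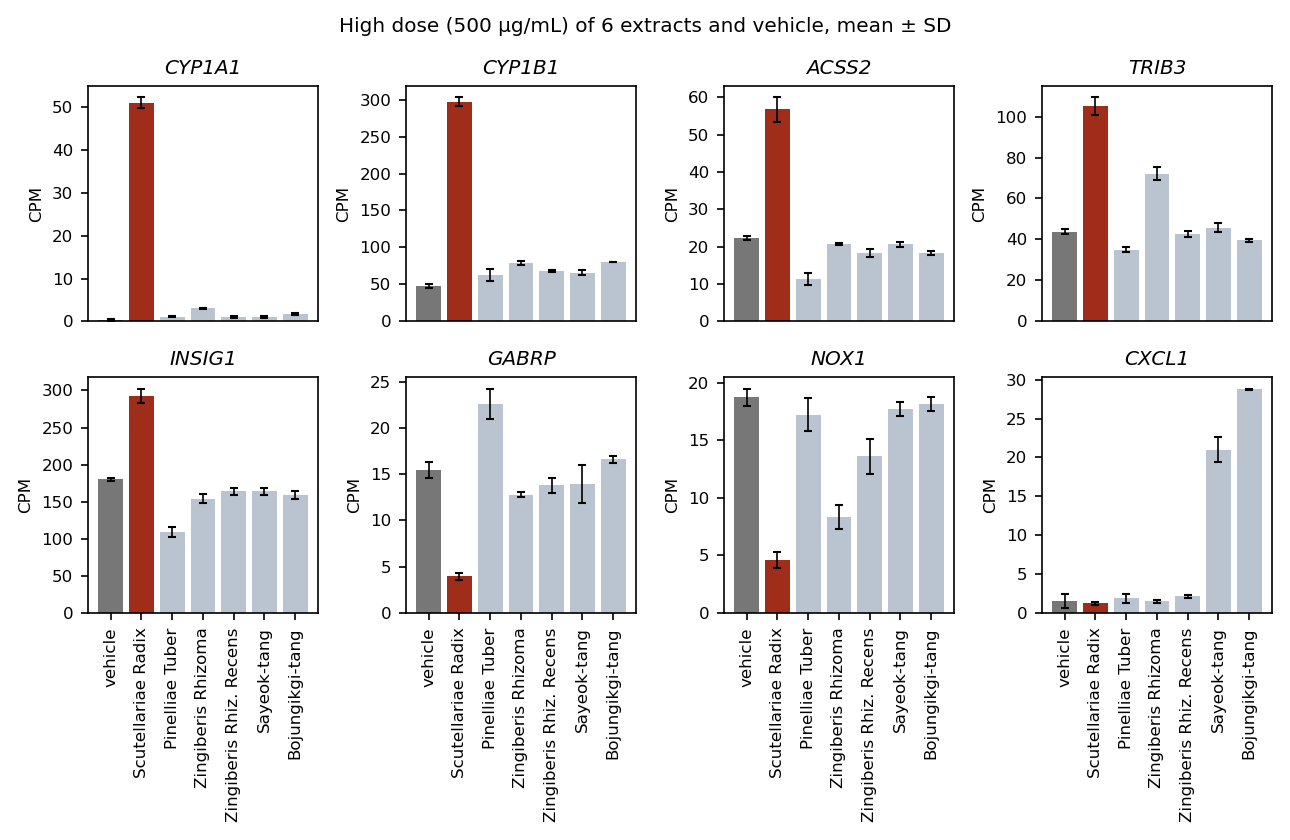
Mean CPM with SD for 8 genes in vehicle (grey), Scutellariae Radix (red) and 5 other extracts at 500 µg/mL (pale blue), with 3 libraries per group except 2 for Bojungikgi-tang. CYP1A1, CYP1B1, ACSS2, TRIB3 and INSIG1 are highest and GABRP and NOX1 lowest under Scutellariae Radix, and CXCL1 is high under Sayeok-tang and Bojungikgi-tang alone.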

How the data were processed

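Per the labels' protocols, mRNA libraries were made from total RNA with a directional kit and sequenced as paired reads on an MGI instrument. The authors deposited RSEM expected counts per gene. Per the submitters' processing notes, RSEM 1.3.3, STAR 2.7.3a, Trim Galore 0.6.5 and FastQC 0.11.9 were used with hg38. Not given in the sources used here: annotation release, strand setting and gene filters. Columns of other samples (210) were not used.

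Expected counts were rounded (90.0% to 92.1% were whole). All 54 libraries of the 19 groups with replicates were fitted in R 4.3.3 with edgeR 4.0.16, using TMM factors, filterByExpr on groups, glmQLFit (robust) and glmQLFTest, Benjamini-Hochberg at 0.05 over 16763 genes, 35 residual degrees of freedom, common biological coefficient of variation 0.0855. SE is the log2 fold change over the root of F. CPM uses TMM-scaled library sizes. A gene's reads at a given CPM scale with the library total, 20.01 to 35.82 in units of 1e6, which limits low genes. Positions are GENCODE 29. Symbols are from a separate reference of gene names, or from GENCODE 29 where that gave none. The scripts were tested on simulated data.

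Genes eligible to be named were the 15 strongest rises and 15 strongest falls against vehicle and the 5 each way in the other contrasts (average log2 CPM above 2, groups not overlapping, a symbol, no pseudogene), the 4 lowest-p members at most of each list, and 36 panel genes. ERBB2, ERBB3, XAF1, DHRS9, TXN, PRDX1, TALDO1, GPX2, STAT2 and NFE2L2 were named after their values were seen. Many eligible genes are counted but not named, and some are not reported here. The genes, lists and panel were chosen with earlier results of these data known. Alternatives were DESeq2 1.42.0, its size factors, no filter, a replicate block, fewer libraries and leaving out each library.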

Additional observations from a re-analysis of the deposited data

How the results depend on the processing

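Under the alternatives run, no gene called both there and in the reported fit changed sign. Against the low dose, 31 reported calls took the other sign, uncalled, without low-dose replicate 3, and 27 without the libraries that stood apart. The count of genes called against vehicle was 3953, and 3938 with a replicate block. The labels do not say whether a replicate number marks a shared culture. Deviations of same-numbered high-dose and vehicle libraries correlated at 0.0514, 0.0133 and 0.0116. High-dose libraries 1 and 3 correlated best with their own number, and library 2 with vehicle library 3 (0.0463). Against the low dose, libraries 2 and 3 correlated best with their own number (0.0978 and 0.0768), and library 1 with low-dose library 3 (0.0393). With 3 libraries per group these values cannot decide whether replicates were paired. DESeq2 called 4048, edgeR with the size factors of DESeq2 3994, edgeR without a low-count filter 3692, edgeR without the libraries that stood apart 5171, and the 6 libraries fitted alone 4439, or 4854 with a replicate block, an alternative chosen after seeing the data. Leaving out 1 library gave 2515 (vehicle replicate 1) to 3980. Against the low dose (3765) the replicate block gave 3743, the 6 libraries alone 310, and leaving out 1 library 2217 to 5145. Against the other extracts (2401) the replicate block gave 2403, leaving out the libraries that stood apart 4074, and leaving out 1 high-dose library 1545 to 1710. The cause of these shifts was not tested; the fit of 6 libraries has fewer samples. Of 182 named genes called against vehicle 165 kept their call under every setting. Those that lost it under at least 1 setting included ABCC5, AURKA, BCL2L2, BIRC5, CCNB2, MALAT1, MT-CO3, MT-ND4L, MT-ND6, POLR1B, PSMB9, RPLP0, RPLP1, RPLP2, SNHG3 and TAP1. In each other contrast the 10 genes ranked by size kept theirs; further genes named there were not refitted. Below 1 CPM, as for XAF1 or CCL20, few counts limit precision.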

Other observations

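ENSG00000280800 and ENSG00000280614, without a symbol in the tables used, fell against vehicle by 2.26 and 2.17 on the log2 scale (edgeR adjusted p = 1.3e-05 and 2.4e-05), and were named after their values were seen. ENSG00000280800 read 998, 1120 and 1132 CPM in the vehicle libraries and 260, 233 and 186 CPM at high dose. It also read 214, 198 and 411 CPM at the low dose and 201, 230 and 195 CPM at the medium dose. In the 14 libraries of the other 5 extracts at high dose it ranged from 110 to 299 CPM, so every extract-treated group compared here lay below vehicle. Sample codes of the vehicle group form a separate set, and treatment and code set cannot be told apart for this gene. Both genes gave the same CPM in each of the 3 high-dose and 3 medium-dose libraries and in vehicle libraries 1 and 2. In low-dose library 3 they differed, at 411 and 75.6 CPM. Another such entry, ENSG00000281181, also named after its values were seen, fell by 2.17 with the same high-dose values. The entries are therefore not read as separate findings.

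Genes of low level also moved far. XAF1, an interferon-stimulated gene linked to apoptosis, read 1.27, 0.814 and 1.33 CPM in vehicle and 0, 0 and 0.152 CPM at high dose. DHRS9, a retinol dehydrogenase, rose from 0.784, 0.673 and 0.608 CPM to 2.33, 2.72 and 2.48 CPM (log2 fold change 1.87, edgeR adjusted p = 2.5e-08). SLC6A9, a glycine transporter, rose from 0.392, 0.533 and 0.608 CPM to 1.98, 2.46 and 2.78 CPM (2.21, adjusted p = 7.2e-08). CCL20, a chemokine gene, rose from 0.245, 0.140 and 0.304 CPM to 0.659, 0.605 and 0.571 CPM (1.45, adjusted p = 0.0024), with the groups not overlapping. XAF1 and DHRS9 were named after their values were seen.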
